A study of Mus musculus with 8 samples.

Results

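The genes of glucose uptake and glycolysis were followed in E9.5 mouse embryos, in a dissected piece of the mesenchyme dorsal to the heart that adds cells to the atria and their septum, called the pSHF (posterior second heart field). By the study's methods the heart and the neural tube were removed from this tissue, and foregut endoderm remained in it. The members were Slc2a1, Slc2a3, Hk1, Hk2, Pfkl, Aldoa, Pgk1, Eno1, Ldha and Pdk1, taken by gene name from all spots other than controls, and they made up 10 of the 27827 gene names on the array. They were carried by 21 probes in 30 spots per array. Tissue heterozygous for a Tbx5 mutation (Tbx5+/-, n = 4) was compared with wild-type tissue (n = 4) from the same mixed-background colony, both from females that had received gonadotropins before mating. Each array held RNA that the design text calls a pool, without the number of embryos in it. Both groups bear the embryo numbers 1, 5, 6 and 7. Numbers 1 and 5 lay under array label 1 and numbers 6 and 7 under array label 2, so each label held 2 arrays of each group. The labels name neither the allele nor the part of Tbx5 that it removes, and no Cre is named for these samples.

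Glycolysis turns glucose into pyruvate in the cytosol and yields ATP without oxygen. Facilitative transporters of the Slc2a family let glucose in, hexokinases trap it as glucose 6-phosphate, phosphofructokinase commits it to breakdown, and aldolase, phosphoglycerate kinase and enolase carry the carbon on toward pyruvate. Lactate dehydrogenase turns pyruvate into lactate, while pyruvate dehydrogenase kinase holds pyruvate back from the mitochondria. Many of these genes are known targets of the hypoxia-inducible factors and of Myc, and early embryonic tissue before a full circulation is known to lean on glycolysis.

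The promoters of 4 members and an Ldha probe are shown here because the results turn on these genes. RefSeq windows on GRCm38.p6 were at hand for 9 of the 10 genes, with 16 start sites, and the 250 bases before each start site were searched on both strands for ACGTG, a core letter string of hypoxia response elements. It occurred in 16.6% of all 32851 such windows, and in 6 of the 16 member windows, belonging to Aldoa, Hk2, Ldha, Pgk1 and Slc2a1. The Aldoa windows with it overlapped and held the same match, so these windows are not independent. The windows of Slc2a1, Aldoa, Pgk1 and Ldha, the genes with the highest differences between the groups, are printed 5′ to 3′ with ACGTG, or CACGT where it lay on the other strand, in capitals.
Slc2a1, chr4:119108495-119108744, plus strand: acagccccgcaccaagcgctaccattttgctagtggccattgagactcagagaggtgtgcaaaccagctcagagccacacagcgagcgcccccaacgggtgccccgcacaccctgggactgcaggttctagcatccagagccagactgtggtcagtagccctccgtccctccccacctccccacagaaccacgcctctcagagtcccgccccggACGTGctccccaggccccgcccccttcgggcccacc
Aldoa, chr7:126799255-126799504, minus strand: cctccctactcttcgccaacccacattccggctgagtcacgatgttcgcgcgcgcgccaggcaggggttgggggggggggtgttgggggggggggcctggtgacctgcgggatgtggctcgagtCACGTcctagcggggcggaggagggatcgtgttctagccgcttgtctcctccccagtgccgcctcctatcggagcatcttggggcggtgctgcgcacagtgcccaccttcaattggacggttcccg
Pgk1, chrX:106186850-106187099, plus strand: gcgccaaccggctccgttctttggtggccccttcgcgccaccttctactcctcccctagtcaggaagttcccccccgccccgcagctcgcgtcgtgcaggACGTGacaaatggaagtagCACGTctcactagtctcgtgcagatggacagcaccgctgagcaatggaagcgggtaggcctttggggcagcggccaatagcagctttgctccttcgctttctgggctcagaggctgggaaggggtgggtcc
Ldha, chr7:46845554-46845803, plus strand: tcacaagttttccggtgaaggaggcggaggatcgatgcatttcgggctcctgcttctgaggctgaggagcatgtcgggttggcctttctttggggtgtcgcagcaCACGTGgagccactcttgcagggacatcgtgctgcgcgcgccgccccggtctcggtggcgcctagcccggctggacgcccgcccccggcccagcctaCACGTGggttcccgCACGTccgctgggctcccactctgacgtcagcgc
The Ldha window held the letters at 3 places, of which 2 were the palindrome CACGTG, a letter string also known as an E-box and found in 6.02% of all windows. Pgk1 held ACGTG at 2 places, 150 and 131 bases before the start site, and Slc2a1 at 1 place, 36 bases before it. The related core GCGTG was in 28.2% of all windows and in 8 of the 16 member windows, some of which, of Eno1, overlapped. The T-box letters AGGTGT were in 11.8% of all windows and in 2 member windows. These were the Slc2a1 window and an Ldha window other than the printed one. These are matches of letters and not measured binding sites.

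The upstream Ldha probe crossed exon junctions, since its 60 bases spanned 930 bases of the mm9 genome. It is shown because it lies well inside the transcript, at position 981 of NM_010699, and read differently from the probe near the 3′ end. No base is in capitals.
Ldha A_51_P364146, chr7:54109426-54110355: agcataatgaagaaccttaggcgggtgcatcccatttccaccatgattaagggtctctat

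To be tested, a probe had to exceed background clearly, by the scanner software's mark, throughout the 4 arrays of 1 group or of both, as did 20031 of 41174 probes, for 17 of the 21 member probes and for all 10 member genes. Levels are log2 intensities after variance stabilization (VSN), and differences are Tbx5+/- minus wild-type on that scale. A gene is represented by its brightest tested probe. The number of arrays limits the precision, and p-values measure the spread between these pools. In bulk tissue, fewer cells of a type and less RNA per cell cannot be told apart.

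Tbx5 checked the labels. On A_52_P523712 (mm9 chr5:120334087-120334146) it read 8.90 (number 1), 9.62 (number 5), 9.04 (number 6) and 8.51 (number 7) in Tbx5+/-, against 11.36, 11.45, 10.32 and 11.44 for wild-type tissue, a difference of -2.12 that missed the threshold in limma (adjusted p = 0.0893). The groups did not overlap. On a dim probe, A_51_P469338, the difference was -0.16. All 12 markers of the posterior second heart field were tested, as were 9 of 9 cardiomyocyte, 8 of 8 endothelial and 9 of 9 foregut endoderm markers and 10 of 11 markers of primitive erythrocytes, so the dissected tissue held RNA of several cell types. The arrays' share of spots well above background ran from 45.0% to 63.6%, and Tbx5+/- 1 stood apart from Tbx5+/- 5, 6 and 7 in many of the values below.

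None of the 10 member genes passed an adjusted p of 0.05 in limma, and neither did any other probe (0 of 20031, 0%). The lowest adjusted p of a member was 0.200. At an unadjusted p under 0.05, Slc2a1, Pgk1 and Ldha were higher in Tbx5+/-, where 3.2% of all probes were, and 0 members were lower, where 19% of all probes were. The median difference of the 10 genes was 0.17, beside -0.20 over all probes tested. Under normexp and quantile normalization these medians were -0.019 and -0.016. With the mean of each gene's probes in place of the brightest they were -0.0052 and -0.20. On the VSN values of the brightest probes, 6 of the 10 had a difference above 0 and 4 below, while 33.9% of all probes had one above 0. Without Tbx5+/- 1, limma called 3 of the 10 genes, Aldoa and Ldha higher and Eno1 lower, where 19.2% of all probes were called (6.79% higher, 12.4% lower). With embryo number as a block it called Eno1 alone, where 11.8% of all probes were called. With arrays weighted by their quality it called 7 of the 10, 5 higher and 2 lower, where 51.1% of all probes were called (16.4% higher, 34.7% lower). That fit leaned on Tbx5+/- 7 (weight 4.02) and wild-type 7 (5.37), while the other arrays had weights from 0.17 to 2.145.

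**Figure D1:**
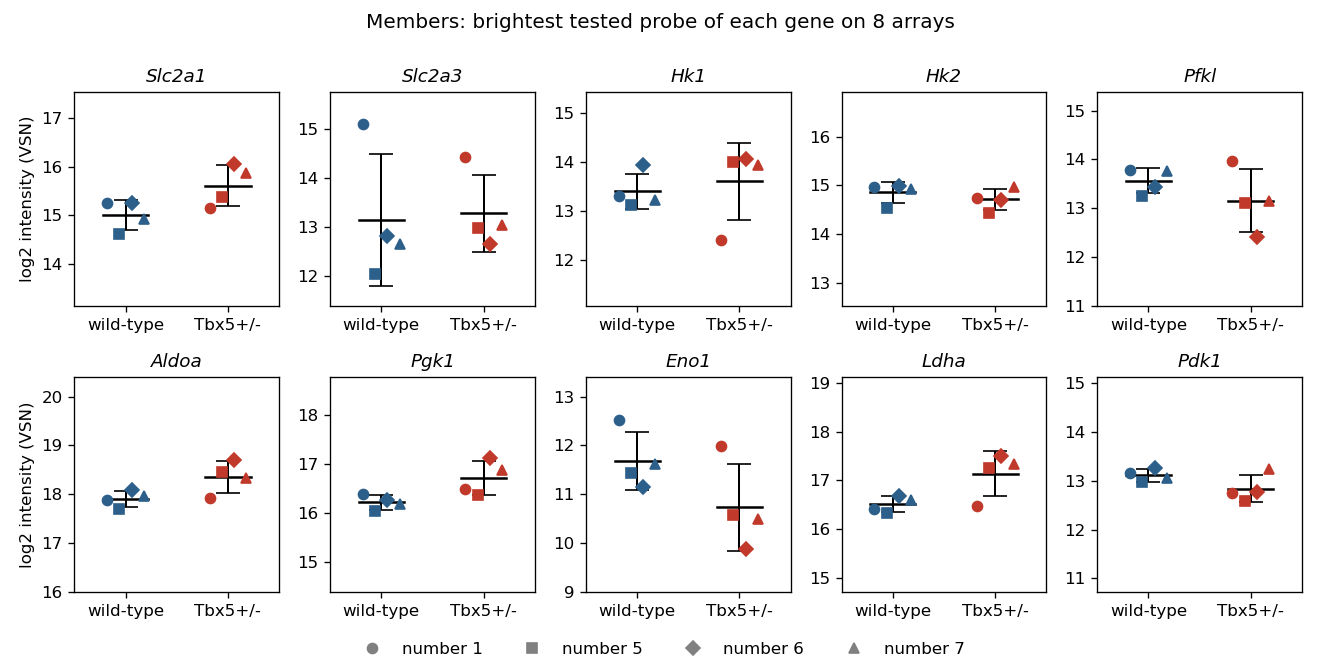
Level of the brightest tested probe of each member gene (log2 intensity after VSN) in 4 wild-type and 4 Tbx5+/- arrays. Point shapes stand for the embryo number, and bars show the mean and SD of each group. Ldha, Pgk1, Slc2a1 and Aldoa lay higher in Tbx5+/- numbers 6 and 7 than on any wild-type array, and number 1 stood high in both groups for Slc2a3 and Eno1.

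Slc2a1 encodes GLUT1, the basal glucose transporter of embryonic and red blood cells. Its probe A_51_P464738 (mm9 chr4:118809864-118809923, position 2501 of NM_011400) read 15.15, 15.37, 16.04 and 15.87 in Tbx5+/- (numbers 1, 5, 6 and 7, the order kept below) and 15.25, 14.62, 15.26 and 14.93 in wild-type tissue. Numbers 5, 6 and 7 of Tbx5+/- lay above all wild-type arrays and number 1 did not. The difference was 0.59 ± 0.25 (SE, n = 4 and 4), a 1.51-fold higher mean, with an adjusted p of 0.216 in limma. It was 0.32 within array label 1 and 0.86 within array label 2.

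Slc2a3 encodes GLUT3, a high-affinity transporter known from neurons and the placenta. On A_52_P354744 (mm9 chr6:122678075-122678134, position 3425 of NM_011401) the level was 14.43, 12.98, 12.66 and 13.03 in Tbx5+/- and 15.11, 12.03, 12.81 and 12.64 in the wild-type. Number 1 was the highest array of both groups by more than 1 log2 unit, and the groups overlapped throughout. The difference of 0.13 ± 0.63 (SE, n = 4 and 4) was smaller than the spread within either group (SD 0.79 and 1.35), and its adjusted p in limma was 0.914. Without Tbx5+/- 1 it was -0.26. The other probes named Slc2a3, A_52_P371514 and A_52_P283862, were not well above background on any array, and the files place the latter on chromosome 17, away from the gene. The change of Slc2a3 minus that of Slc2a1 was -0.46 (p = 0.514 in an exact permutation test, two-sided, whose 70 regroupings allow no p under 0.0286).

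Hexokinase 1, the housekeeping isozyme bound to mitochondria, was read by 6 probes, of which 4 were tested. The brightest, A_52_P102773 (mm9 chr10:61731916-61731975), read 12.41, 14.00, 14.07 and 13.94 in Tbx5+/- and 13.31, 13.12, 13.94 and 13.23 in the wild-type. Its Tbx5+/- 1 value was the lowest of the 8 arrays, while the other Tbx5+/- arrays lay level with or above the highest wild-type array. The difference was 0.20 ± 0.38 (SE, n = 4 and 4; adjusted p = 0.752 in limma), and 0.60 without Tbx5+/- 1.

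Probes farther upstream in Hk1 went the other way. A_51_P249024 (mm9 chr10:61734377-61734436) read 8.28, 8.89, 7.22 and 8.64 in Tbx5+/- and 9.24, 8.88, 8.93 and 8.89 in the wild-type, with a difference of -0.73 ± 0.33 (SE; adjusted p = 0.229). A_52_P674530 (mm9 chr10:61732735-61732794) gave -0.64 ± 0.30 (SE; adjusted p = 0.239) and A_52_P479599 gave -0.20. On these 3 probes the groups overlapped, and Tbx5+/- 6 was the lowest array of A_51_P249024 and A_52_P674530. The remaining probes, A_52_P9337 and A_52_P87141, near the start of the transcript, were not well above background on any array.

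Hexokinase 2, the inducible isozyme of muscle and heart, had overlapping groups. A_51_P204080 (mm9 chr6:82675056-82675115) read 14.74, 14.44, 14.71 and 14.97 in Tbx5+/- and 14.96, 14.53, 14.995 and 14.94 in the wild-type. The highest and the lowest array of the 8 were 14.995 (wild-type 6) and 14.44 (Tbx5+/- 5). The difference was -0.14, with a 95% interval from -0.58 to 0.30, and it was 0.25 after scaling to the 75th percentile and 0.19 with arrays centred on their medians. The change of Hk2 minus that of Hk1 was -0.34 (exact two-sided permutation p = 0.486), and -0.75 (p = 0.0571) without Tbx5+/- 1. With the mean of all tested Hk1 probes in place of the brightest it was 0.20. After adjustment over the 2 contrasts both p-values were 0.514.

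Pfkl, the liver-type subunit of phosphofructokinase, read 13.97, 13.11, 12.40 and 13.15 in Tbx5+/- and 13.79, 13.26, 13.43 and 13.77 in the wild-type on A_51_P310896 (mm9 chr10:77450926-77450985). Tbx5+/- 1 was the highest array of all and Tbx5+/- 6 the lowest. The difference was -0.40 ± 0.31 (SE, n = 4 and 4; adjusted p = 0.427 in limma), 0.02 within array label 1 and -0.82 within array label 2. After scaling to the 75th percentile it was -0.027.

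Aldolase A splits fructose 1,6-bisphosphate. A_52_P98387 (mm9 chr7:133938799-133938858) read 17.93, 18.46, 18.69 and 18.33 in Tbx5+/- and 17.88, 17.70, 18.08 and 17.96 in the wild-type. Tbx5+/- 5, 6 and 7 lay above every wild-type array, and Tbx5+/- 1 lay among them. The difference was 0.45 ± 0.21 (SE, n = 4 and 4; adjusted p = 0.235 in limma), and 0.59 without Tbx5+/- 1. The other probe, A_51_P216905, gave 0.27. Its bases overlap those of the first probe, with starts at 1311 and 1329 of NM_007438, although the files' genome coordinates for it (chr7:133938601-133938615) cover only 15 bases and lie apart. Under normexp and quantile normalization the first probe's difference was -0.21.

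Phosphoglycerate kinase 1 makes the earlier ATP of glycolysis. It was spotted 10 times on each array as A_51_P182828 (mm9 chrX:103398767-103398826), so its technical error could be seen: the coefficient of variation over the repeated spots was 1.90% to 4.39% per array. The probe read 16.49, 16.37, 17.13 and 16.89 in Tbx5+/- and 16.39, 16.03, 16.26 and 16.19 in the wild-type. Only Tbx5+/- 5 fell within the wild-type range, and just under its top. The difference was 0.50 ± 0.22 (SE, n = 4 and 4), a 1.42-fold higher mean (adjusted p = 0.215 in limma), and the overlapping probe A_52_P600398 gave 0.49, the single member probe whose groups did not overlap, as held for 9.95% of all probes (0.724% with Tbx5+/- above, 9.23% with Tbx5+/- below). Before scaling between arrays the order was the reverse: the mean net signal of the repeated spots was 131253, 68096, 76651 and 89153 in Tbx5+/- and 131877, 97158, 101383 and 103994 in the wild-type, so that the higher level in Tbx5+/- is relative to the other probes of each array.

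Enolase 1, the ubiquitous enolase, had the lowest difference of the members. A_52_P349939 (mm9 chr4:149618134-149618359, position 413 of NM_023119) read 11.99, 10.58, 9.88 and 10.49 in Tbx5+/- and 12.52, 11.43, 11.15 and 11.63 in the wild-type. Within each embryo number the Tbx5+/- array was lower, by -0.52, -0.85, -1.28 and -1.14 in numbers 1, 5, 6 and 7, and number 1 was the highest array in both groups. The difference was -0.95 ± 0.45 (SE, n = 4 and 4; adjusted p = 0.237 in limma). With embryo number as a block it passed the threshold (adjusted p = 0.0342; over all alternatives the adjusted p ran from 0.00204 to 0.998), where 11.4% of all probes passed as lower. The files assign this probe also to NM_001025388, which RefSeq names Eno1b, so the source of its signal is uncertain.

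Lactate dehydrogenase A had the smallest unadjusted p of the members. A_51_P364140 (mm9 chr7:54110889-54110948, position 1573 of NM_010699) read 16.47, 17.26, 17.49 and 17.33 in Tbx5+/- and 16.42, 16.33, 16.69 and 16.60 in the wild-type. Tbx5+/- 5, 6 and 7 lay above the whole wild-type group. The difference was 0.63 ± 0.24 (SE, n = 4 and 4), a 1.55-fold higher mean, with an unadjusted p of 0.0283 and an adjusted p of 0.200 in limma. Farther upstream, the printed probe A_51_P364146 read 16.70, 16.20, 16.12 and 16.27 in Tbx5+/- and 16.77, 16.25, 16.04 and 16.40 in the wild-type, and its difference was -0.045 with a 95% interval from -0.54 to 0.45. The probes of this transcript therefore gave different values for the same comparison.

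Pyruvate dehydrogenase kinase 1 slows the entry of pyruvate into the citric acid cycle. On A_52_P277654 (mm9 chr2:71741820-71741879) it read 12.75, 12.59, 12.78 and 13.24 in Tbx5+/- and 13.17, 12.97, 13.26 and 13.05 in the wild-type, a difference of -0.27 ± 0.20 (SE, n = 4 and 4; adjusted p = 0.399 in limma). Tbx5+/- 1, 5 and 6 lay below the wild-type range and Tbx5+/- 7 near its top. A_51_P406429 gave -0.34 and was pulled down by Tbx5+/- 5, at 9.21 beside 10.82 to 10.91 on the other Tbx5+/- arrays. After scaling to the 75th percentile the first probe's difference was 0.11.

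**Figure D2:**
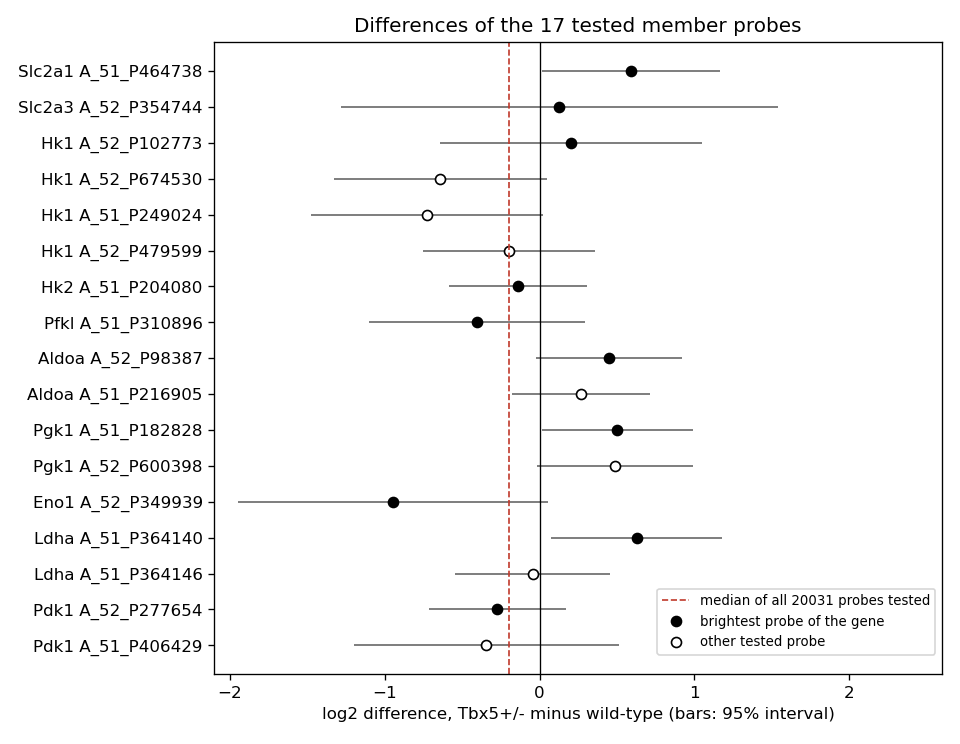
Difference between Tbx5+/- and wild-type (log2) for the 17 tested member probes, with 95% intervals from limma. Filled points are the brightest probe of a gene, and the dashed line is the median of all probes tested, -0.20. Intervals of Slc2a1, Pgk1 (A_51_P182828) and Ldha (A_51_P364140) lie above 0, and the 4 Hk1 probes lie on both sides of 0.

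Slc2a1, Aldoa, Pgk1 and Ldha shared a pattern across embryo numbers. In number 1 their Tbx5+/- and wild-type arrays differed by -0.10, 0.05, 0.10 and 0.05. In number 5 the differences were 0.75, 0.77, 0.34 and 0.93. In number 6 they were 0.78, 0.61, 0.87 and 0.80, and in number 7 they were 0.94, 0.37, 0.70 and 0.73. All 4 genes were thus higher in Tbx5+/- in numbers 5, 6 and 7 and nearly level in number 1. Genes outside the members were mixed, and some were also higher in numbers 5, 6 and 7 and not in number 1. In the same order Gpi1, of glycolysis, differed by -0.15, 0.37, 0.46 and 0.28. Cs, of the citric acid cycle, differed by -0.60, 0.84, 0.47 and 0.73. Gapdh, of glycolysis, went the other way, by 0.15, -0.20, -1.13 and -0.41. The differences in summed level of cell type markers were also lowest in number 1 for every list but the neural tube. In numbers 1, 5, 6 and 7 they were -0.36, -0.23, -0.041 and -0.26 for endothelium. For foregut endoderm they were -0.61, 0.37, 0.26 and -0.17, and for the liver bud -4.06, 0.85, 0.52 and -0.86. The 3 lists described next held single markers that differed in direction.

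For primitive erythrocytes the sum, which the embryonic globins dominate, differed by -0.023, 0.61, 0.72 and 0.56 in numbers 1, 5, 6 and 7. It ran from 16.66 to 19.44 in Tbx5+/- and from 16.68 to 18.83 in the wild-type, with number 1 lowest in both. Of the 10 markers tested, however, 6 had a difference below 0 and the median was -0.16. Hbb-bh1, an embryonic globin, had 0.65 and Hba-a1 0.57, while Klf1 and Gata1, erythroid transcription factors, had -0.64 and -0.45. None of the 10 passed at an unadjusted p under 0.05. For cardiomyocytes, which the dissection was meant to remove with the heart, the sum differed by -0.50, 0.58, 0.21 and 0.85, ran from 18.08 to 19.22 in Tbx5+/- and from 18.37 to 18.97 in the wild-type, and the 9 markers had a median of 0.0087. For the pSHF the sum, dominated by Nr2f2, Wnt2 and Aldh1a2, differed by -1.59, 0.74, 1.21 and 0.57 and ran from 14.73, in Tbx5+/- 1, to 17.24 and from 15.94 to 16.32, yet the list's median was -0.75. Of its 12 markers 7 were below 0, and 6 were lower at an unadjusted p under 0.05, where 19% of all probes were. The same number passed as lower with embryo number as a block, where 11.4% of all probes did. Among these lower markers, Foxf1a, Osr1 and Gli1 carried the scanner software's mark in only 3 Tbx5+/- samples, and Gata4 in only 2. Each carried it in all 4 wild-type samples, so the filter admitted these markers through the wild-type group alone. Tbx5 and Hoxb1 carried it in all 4 samples of either group. The summed neural tube markers went the other way, by 0.70, -0.44, -0.27 and -0.46. No erythrocyte, cardiomyocyte or pSHF marker was below background on all arrays. The part of these cell types in the members' differences was not tested.

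**Figure D3:**
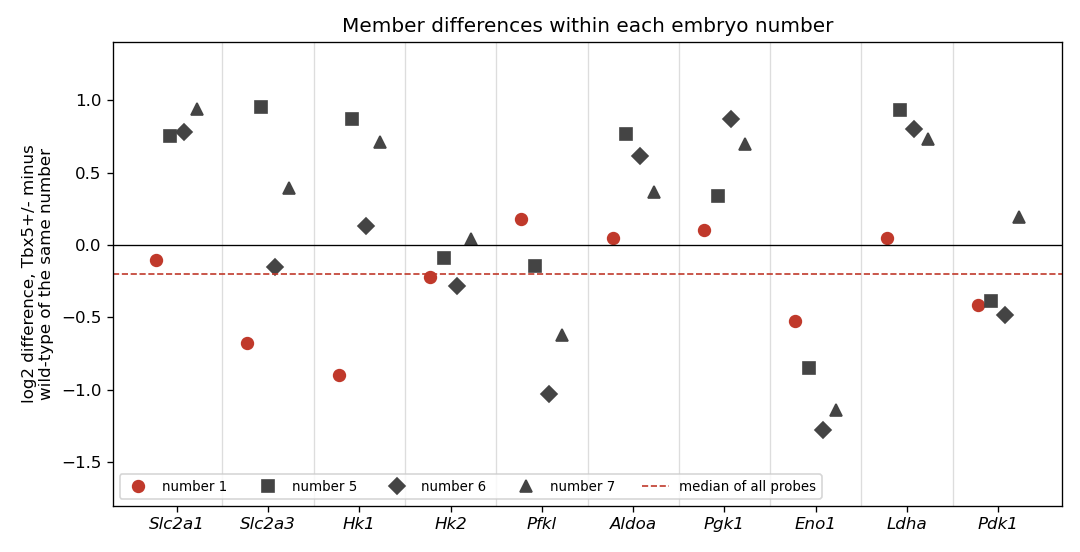
Difference between the Tbx5+/- and the wild-type array of the same embryo number (log2) for each member gene. Shapes stand for the numbers, number 1 is in red, and the dashed line is the median difference of all probes, -0.20. Slc2a1, Aldoa, Pgk1 and Ldha lie near 0 in number 1 and above 0 in numbers 5, 6 and 7, and Eno1 lies below 0 in all 4.

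The position of a probe along the transcript moved with the result too. Over 1759 other transcripts with probes at least 500 bases apart, the upstream probe read lower than the downstream one by a median of -1.25, -1.69, -1.98 and -1.79 in Tbx5+/- 1, 5, 6 and 7 and of -1.19, -1.39, -1.49 and -1.37 in the wild-type. From wild-type to Tbx5+/- the upstream probe fell more than the downstream one in 68.8% of these transcripts. Among the members, the upstream minus the downstream Ldha probe was 0.23, -1.06, -1.38 and -1.06 in Tbx5+/- and 0.35, -0.081, -0.65 and -0.20 in the wild-type, a change of -0.67. For Hk1, A_51_P249024 minus A_52_P102773 was -4.13, -5.11, -6.85 and -5.31 in Tbx5+/- and -4.07, -4.25, -5.01 and -4.34 in the wild-type, a change of -0.93. In Ldha, Hk1 and the array-wide measure alike, Tbx5+/- 6 was the lowest array and number 1 of both groups the highest. The Hk1 probes of this contrast are assigned to different transcript models, as are the Pdk1 probes, whose change was -0.071. For Aldoa and Pgk1, whose probes overlap, the change was -0.18 and 0.014. These probe contrasts were picked after their values were seen and carry no test.

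**Figure D4:**
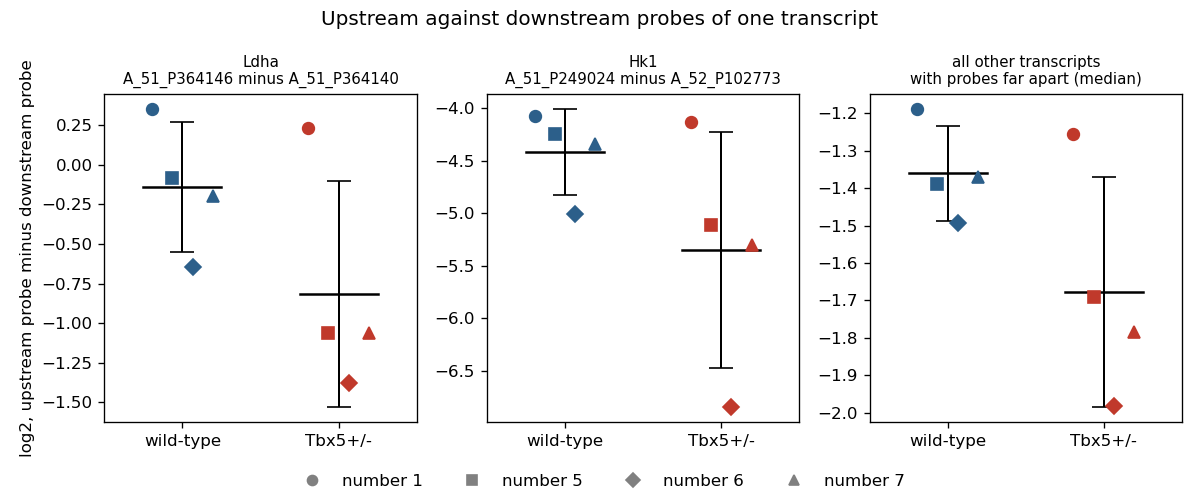
Upstream minus downstream probe (log2) on each array for Ldha, for Hk1 and as the median over 1759 other transcripts. The Hk1 probes are assigned to different transcript models. Shapes stand for the embryo numbers and bars for the mean and SD of 4 arrays. In all 3 panels Tbx5+/- 5, 6 and 7 lie lower than Tbx5+/- 1, and Tbx5+/- 6 is lowest.

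With each array's median gap between upstream and downstream probes as a covariate, an alternative chosen after seeing the data, the differences were smaller: 0.28 for Slc2a1, 0.16 for Aldoa, 0.31 for Pgk1, 0.20 for Ldha and 0.051 for Eno1. That of Hk1 was -0.53 and that of Slc2a3 was 1.21. Because the gap itself differed between the groups by -0.32, this fit cannot separate it fully from genotype. The scaling between arrays moved the members too. After scaling to the 75th percentile the differences were 0.97 for Slc2a1, 0.89 for Pgk1 and 1.02 for Ldha, beside a median of 0.10 over all probes. Under normexp and quantile normalization they were 0.39, 0.18 and 0.23, beside a median of -0.016. Relative to the median of all probes, the VSN differences of Slc2a1, Aldoa, Pgk1 and Ldha were 0.79, 0.65, 0.70 and 0.83, and that of Eno1 was -0.75.

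**Figure D5:**
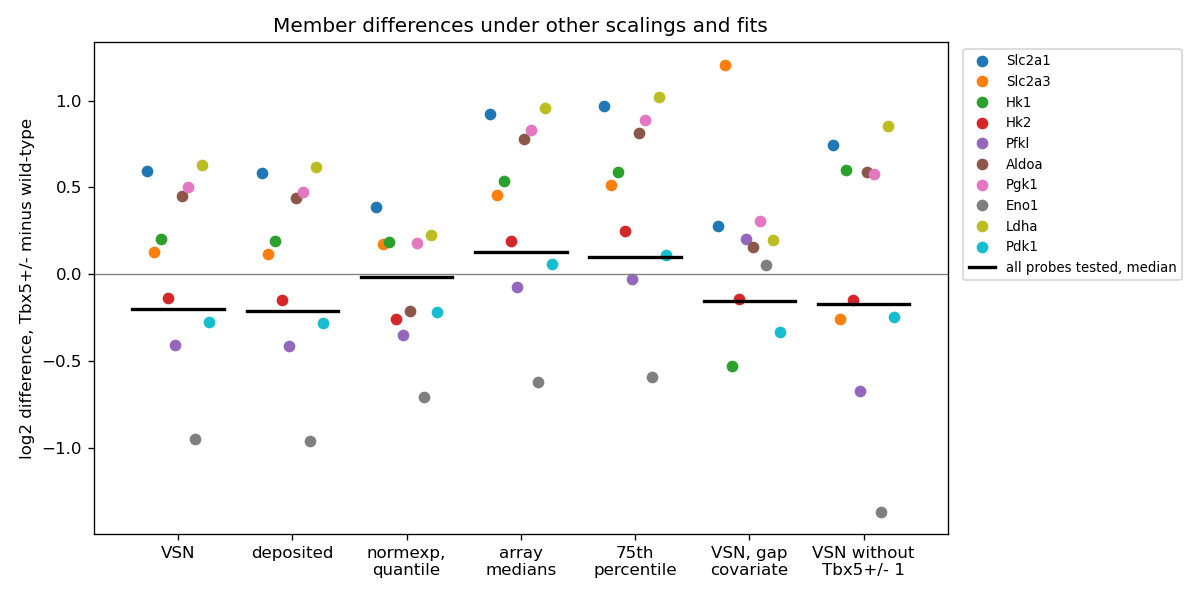
Difference of each member gene (log2, Tbx5+/- minus wild-type) under 5 scalings, with the probe gap as a covariate and without Tbx5+/- 1. Black bars are the median of all probes tested, from -0.21 (deposited values) to 0.13 (arrays centred on their medians). Ldha, Pgk1 and Slc2a1 lie above 0 in every column and Aldoa in all but normexp with quantile normalization, while Eno1 lies below 0 in all but the gap covariate.

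The other enzymes of the pathway were described by the same fit, and none of their genes passed the adjusted threshold. Of 27 other transporters and glycolytic enzymes, 22 were tested, 11 had a difference above 0 and 11 below, and the median was -0.034. At an unadjusted p under 0.05, 0 were higher and 1 was lower (beside 3.2% and 19% of all probes), Slc2a8 (GLUT8, an intracellular transporter), at 8.39 ± 0.72 in Tbx5+/- and 9.21 ± 0.24 in the wild-type (SD, n = 4). Of the genes that control glycolysis, 10 were tested, 0 passed at an unadjusted p under 0.05 and the median was 0.052.

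Downstream of the members, 21 genes of pyruvate use and the citric acid cycle had a median of -0.041, with 1 higher and 4 lower at an unadjusted p under 0.05, beside 3.2% and 19% of all probes. Suclg1, a subunit of succinyl-CoA ligase, was at 14.43 ± 0.52 in Tbx5+/- and 13.62 ± 0.34 in the wild-type (SD, n = 4; adjusted p = 0.187 in limma). Mpc2, a subunit of the mitochondrial pyruvate carrier, was at 10.61 ± 0.12 and 11.29 ± 0.24 with no overlap (adjusted p = 0.123), and Ogdh, of the oxoglutarate dehydrogenase complex, at 8.70 ± 1.14 and 10.16 ± 0.53 (adjusted p = 0.185). With embryo number as a block 3 of the 21, Mpc2, Ogdh and Sdha, passed as lower, where 11.4% of all probes did. Of 8 pentose phosphate genes, Pgd was lower at an unadjusted p under 0.05 (difference -0.71; adjusted p = 0.207) and 0 were higher.

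Hypoxia response genes, 20 tested of 21, had a median of -0.076 with 2 higher and 3 lower at an unadjusted p under 0.05 (3.2% and 19% of all probes). Ddit4, a stress-induced inhibitor of mTOR, was at 15.04 ± 0.45 in Tbx5+/- and 14.20 ± 0.33 in the wild-type (SD, n = 4; adjusted p = 0.160 in limma), and Ankrd37, a known target of the hypoxia-inducible factor, had a difference of 0.74 (adjusted p = 0.207). Egln2 and Hif1an, oxygen-dependent hydroxylases that restrain the factor, had differences of -1.03 and -0.81 (adjusted p = 0.211 and 0.204). Egln2 passed as lower with embryo number as a block, as did 11.4% of all probes. The remaining lower gene of the list, P4ha1, had -0.68 (adjusted p = 0.214 in limma). Of the 20 genes tested, 8 had a difference above 0 and 12 below. Among 7 Myc factors 0 passed at an unadjusted p under 0.05, and the median was -0.21, close to that of all probes. Markers of the endothelium had a median of -0.41 with 3 of 8 lower at an unadjusted p under 0.05, beside 19% of all probes.

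The mean profile of the 10 members over the 8 arrays, relative to each array's median, was 0.20, -0.044, 0.40 and 0.26 in Tbx5+/- and 0.085, -0.58, -0.031 and -0.29 in the wild-type. Among 12173 genes outside the lists, the 5 with the profile most like it were Ttc21b, 1110002N22Rik, Med9, Cybasc3 and Hat1, with a root mean square difference of 0.067 to 0.086 log2 units beside a median of 0.42 for all of these genes.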

How the data were processed

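Cy3-labelled cRNA of 8 pSHF samples was measured on Agilent mouse arrays. The deposited scanner files hold, per the file headers, linear intensity values and other marks, such as well above background, from Agilent Feature Extraction 10.5.1.1, and the authors deposited a table of log2 values made with VSN for 22405 probes. Background-subtracted mean signals were normalized with a VSN routine in R 4.3.3, leaving out 1115 outlier spots (0 saturated). Its values correlated with the deposited ones at r of at least 0.9999 on every array, across probes, which are not replicates. Coordinates of probes are those of the files (mm9). limma 3.58.1 compared the groups without covariates, with Benjamini-Hochberg adjustment over all probes tested, in place of the permutation test of the study's methods. Scripts were tested on simulated data.

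Same-numbered samples deviated together (correlation 0.136 to 0.593 over the 4 numbers), so the numbers were taken to pair the samples, although Tbx5+/- 7 correlated more with wild-type 6 (0.376) than with wild-type 7 (0.136). The members and gene lists were chosen with earlier results of these data known. Genes named were all members, Tbx5, up to 2 genes per list and direction with the smallest p among those at an unadjusted p under 0.05, and the 5 most similar profiles. Sdha, P4ha1, Gpi1, Cs, Gapdh and the single cell type markers were named after their values were seen. Alternatives were 3 other sources or scalings, centring, filters, blocks, covariates, array weights, trend with robust variance, the mean of a gene's probes and leaving out each array.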

Additional observations from a re-analysis of the deposited data

Results flagged for a closer look

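In groups of 4 arrays, an array was looked at again when its gap to the nearest other array exceeded Dixon's 95% critical share of the group's range, which chance gives in about 5% of groups. Of the 34 groups of member probes, 4 met it. On the brightest Hk1 probe, A_52_P102773, Tbx5+/- 1 was at 12.41 beside 13.94 to 14.07 on the other Tbx5+/- arrays (gap 0.922 of the range). On A_51_P249024 of Hk1, wild-type 1 was at 9.24 beside 8.88 to 8.93 (0.851). On Hk2, wild-type 5 was at 14.53 beside 14.94 to 14.995 (0.869), and on A_51_P406429 of Pdk1, Tbx5+/- 5 was at 9.21 beside 10.82 to 10.91 (0.943).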

How the results depend on the processing

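Slc2a1, Pgk1 and Ldha had a difference above 0 in every alternative that gave them a value, but its size was not kept: it was 0.39, 0.18 and 0.23 under normexp with quantile normalization, 0.28, 0.31 and 0.20 with the gap covariate, and 0.18 for Slc2a1 with the share above background as covariate (the study-style filter gave none for Slc2a1, Hk1, Hk2, Pgk1, Pdk1 and the isozyme contrasts, and the gap covariate was not run for the contrasts). Over all probes, 80 were called with the study-style filter, 2372 with the replicate block, 10235 with array weights and 0 to 3839 when 1 array was left out (3839 without Tbx5+/- 1, 221 without wild-type 1). Member genes called numbered 1 with the replicate block, 7 with array weights and 0 to 3 when 1 array was left out; the replicate block changed no other call of a member. At an unadjusted p under 0.05 there were 0 members under normexp with quantile normalization and under either covariate, 1 without a filter or with the study-style filter, 5 with the replicate or array label block, 7 with array weights and 0 to 7 with 1 array left out (7 without Tbx5+/- 1; 0 without Tbx5+/- 6, Tbx5+/- 7 or wild-type 5). Of all 20031 probes, 7708 were lower and 3875 higher at that p with array weights, 5525 and 2839 without Tbx5+/- 1, 6050 and 1005 with the replicate block and 4842 and 759 with the array label block. The members' median was 0.55 after 75th percentile scaling, 0.50 centred, 0.44 with array weights, -0.019 under normexp with quantile normalization, -0.16 with the share above background as covariate, -0.0052 with the mean of a gene's probes and -0.066 to 0.31 with 1 array left out (lowest without wild-type 5).

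Signs turned for Hk2 (0.25 by percentile, 0.19 centred, 0.0040 with array weights), Pdk1 (0.11, 0.058 and 0.016 in the same fits), Aldoa (-0.21 under normexp), Slc2a3 (-0.58 with the share covariate; -0.26 to 0.78 with 1 array left out, below 0 without Tbx5+/- 1, wild-type 5 or wild-type 7), Hk1 (-0.051 with the share covariate, -0.53 with the gap covariate, -0.34 as the mean of its probes), and, with the gap covariate, Pfkl (0.20) and Eno1 (0.051). Hk2 minus Hk1 was 0.20 as the mean of probes and -0.75 to -0.12 with 1 array left out, and Slc2a3 minus Slc2a1 -1.003 to 0.11 (0.11 without wild-type 1). Scaling moved the median of all probes from -0.20 to 0.10 (percentile) and the share of lower among unadjusted calls from 85.6% to 35.6%, 50.2% (normexp) and 28.8% (centred). The cause of these shifts was not tested.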
